A study of Homo sapiens with 8 samples.

Results

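Genes known from Schwann cells and other glia were described in MP38, a BAP1-mutant uveal melanoma (UM) cell line, after 24 h of drug treatment. They were taken by name from the table of read counts: PMP22, MBP, S100B, ERBB3, CDH19, ALDH1L1 and AQP4, which are 7 of its 35238 gene symbols. All but AQP4, 6 genes, had enough counts to be tested, among 15085 genes tested in all. The MP38 cells received 0.1% DMSO (control), 40 nM romidepsin, 40 nM quisinostat or 1200 nM mivebresib, with the drugs also in a final 0.1% DMSO. Romidepsin, a cyclic depsipeptide, and quisinostat, a hydroxamate, inhibit histone deacetylases (HDACs), whereas mivebresib is an inhibitor of BET bromodomain proteins. Bulk RNA was taken from 2 wells in each of the 4 groups, with 1 library per well, all of 1 cell line, so the p-values measure the spread between wells of this line only.

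Schwann cells wrap peripheral axons in myelin, and they descend from the neural crest, as melanocytes do. Cells of the Schwann cell precursor stage can give rise to melanocytes, and the transcription factor SOX10 is needed in either lineage, so part of the glial programme is commonly seen in melanocytic tumours. PMP22 and MBP are structural proteins of compact myelin. ERBB3 is the receptor through which axonal neuregulin-1 keeps Schwann cells alive and dividing, and CDH19 is an adhesion molecule of the type II cadherin family found in Schwann cell precursors. S100B is a calcium-binding protein of glia and melanocytic cells, ALDH1L1 is a folate enzyme used to mark astrocytes, and AQP4 is the water channel of astrocyte end-feet.

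Total counts ran from 28483235 to 29359024 per library. Levels are given as CPM, the count scaled to a common library total. At these depths 3 counts, taken as the floor of detection, correspond to 0.102 to 0.105 CPM, which covers counting error only. Replicates differed by more than counting noise in each of the groups, the control pair standing furthest apart (chi-square per degree of freedom 58.1, against 9.52 to 9.79 in the drug groups). Of 9 melanocytic markers, 8 exceeded 3 counts in both libraries of every group, DCT being the exception, and their summed level was 4190 to 5456 CPM in the control, 5051 to 5453 with romidepsin, 4145 to 4773 with quisinostat and 3663 to 3857 CPM with mivebresib. Most of that sum was TYRP1, a pigment enzyme, at 2870 and 3866 CPM in the control and 2925 and 3088 CPM with mivebresib, while MITF, MLANA and SLC45A2 fell with mivebresib (log2 fold change -1.47, -1.33 and -1.52). MAG, a marker of myelinating cells, was at 0 in every library. The markers of leukocytes summed to at most 1.45 CPM in any library, those of endothelium to at most 6.39 CPM and those of fibroblasts to at most 12 CPM. The last 2 sums were highest with quisinostat, against at most 0.926 and 2.33 CPM in the control, and their part in the results was not tested. In bulk RNA, fewer cells of a kind and less RNA per cell cannot be told apart.

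The members covered a wide range of levels in untreated cells. Per kilobase of annotated exon, which allows a comparison between genes, the control level was 41.5 CPM per kb for PMP22 and 11.96 CPM per kb for MBP. The adhesion and receptor genes were lower, with 1.01 CPM per kb for CDH19 and 0.536 CPM per kb for ERBB3. The glial markers S100B and ALDH1L1 lay at 0.212 and 0.161 CPM per kb. These melanocytic cells thus held abundant transcripts of the myelin genes PMP22 and MBP. Of the astrocyte markers of the group, ALDH1L1 was low (20 and 15 counts in the control) and AQP4 was at 0.

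PMP22 lies on chromosome 17 (GRCh38, 15229777 to 15265357, minus strand) and CDH19 on chromosome 18 (66501083 to 66604138, minus strand). The stretch from 250 to 51 bases before the RefSeq start of each (GRCh38.p14, minus strand) is shown. These were the members in which the letters ACAAAG, the core of a site for SOX proteins, were found. The letters are in capitals.
PMP22, chr17:15265377-15265576: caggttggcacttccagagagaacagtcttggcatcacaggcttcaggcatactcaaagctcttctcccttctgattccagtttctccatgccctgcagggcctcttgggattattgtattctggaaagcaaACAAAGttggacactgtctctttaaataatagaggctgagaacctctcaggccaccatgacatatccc
CDH19, chr18:66604141-66604340: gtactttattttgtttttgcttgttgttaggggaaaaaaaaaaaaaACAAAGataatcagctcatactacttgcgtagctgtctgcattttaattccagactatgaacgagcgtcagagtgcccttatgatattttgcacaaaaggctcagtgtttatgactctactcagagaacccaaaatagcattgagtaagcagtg
In PMP22 the motif begins 118 bases before the first RefSeq start, and in CDH19 it begins 204 bases before the start. RefSeq upstream sequence was available for 11 starts of 5 members, with none for ERBB3 or S100B. ACAAAG was sought on either strand (CTTTGT on the other). It was not found in the 250 bases before the other 2 PMP22 starts, nor before those of MBP, ALDH1L1 or AQP4. The same letters occur in 13.7% of 35116 such windows genome-wide. Whether the members held them more often than that was not tested. CATGTG, the core of the M-box of melanocyte promoters, was found at 1 site, which lies in the overlapping windows of 2 AQP4 starts, and before no other member's start (9.42% of all windows hold it). CACGTG was found before none (6.34%), and no match of one motif overlapped a match of another. A match describes the letters only and was not linked to any measured binding. The end of the PMP22 stretch overlaps an annotated antisense RNA exon on the opposite strand.

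Mivebresib gave the largest falls among the members. PMP22, ERBB3 and CDH19 fell to between 0.16 and 0.27 of the control level, MBP rose slightly, and S100B and ALDH1L1 did not pass the test. Genes were called at a Benjamini-Hochberg adjusted p below 0.05 over all tested genes, and 3 members were lower and 1 was higher, against 24.1% of all tested genes lower and 22.2% higher. All 3 that fell also passed the study's stricter limit of a log2 fold change (log2 FC) beyond 1.5, which 4.36% of all genes passed downwards and 3.96% upwards. The median log2 FC of the 6 tested members was -1.40, against 0.0067 over all genes.

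Quisinostat moved the members in opposite directions. ERBB3 and ALDH1L1 rose, and PMP22, CDH19 and MBP were lower, so 2 were higher and 3 lower, against 28.0% and 25.1% of all genes. Of the 3 lower, MBP had a mean CPM level with the control and was not called in 13 of 16 alternatives, and CDH19 was not called in 5. Only 1 was called lower without the second control or the first quisinostat library. At the stricter limit only the rise of ALDH1L1 passed (11.2% of all genes passed upwards and 1.03% downwards). The median log2 FC of the members was 0.077, against -0.0036 over all genes. It lies between the values of MBP (-0.195) and S100B (0.348). S100B was near the floor and passed the low-count filter only with the quisinostat libraries, so the sign of this median is tied to that filter.

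With romidepsin no member passed the test in either direction in edgeR, DESeq2 or limma-voom, while 15.2% of all tested genes were higher and 15.8% lower (3.77% and 0.312% at the stricter limit). One member, CDH19, had an unadjusted p below 0.05. The median log2 FC of the members was -0.31, against -0.012 over all genes. Without the first control library, PMP22 and CDH19 were called lower with romidepsin, as given below for each.

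**Figure D1:**
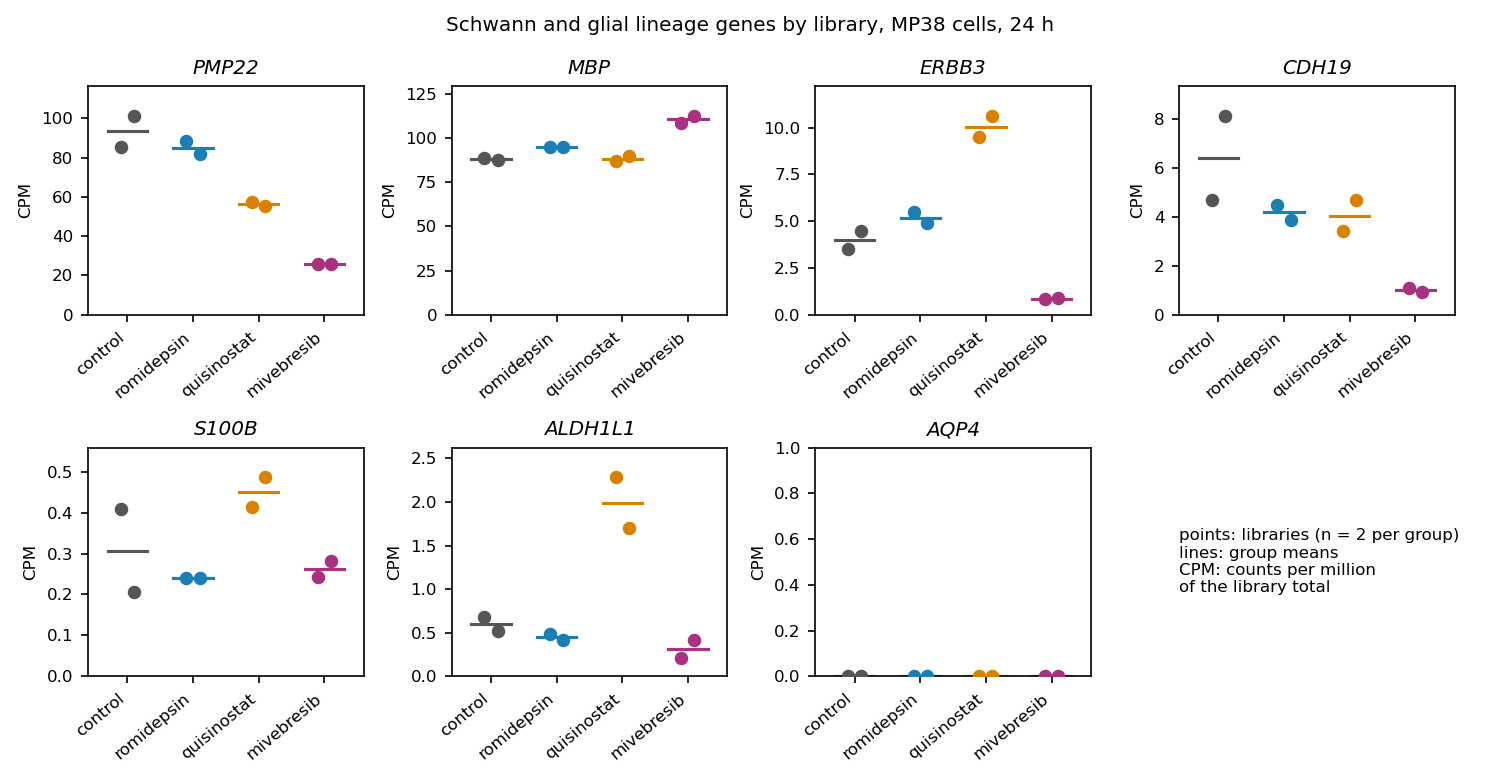
Level of each of the 7 genes in each of the 8 libraries, in CPM on axes that start at 0. Points are libraries, 2 per group, and lines are group means. PMP22, ERBB3 and CDH19 are lowest in both mivebresib libraries, ERBB3 and ALDH1L1 are highest in both quisinostat libraries, and AQP4 is at 0 throughout.

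PMP22, the myelin protein whose duplication causes Charcot-Marie-Tooth neuropathy, measured 85.6 and 101 CPM in the control libraries, 88.5 and 81.7 with romidepsin, 57.2 and 55.3 with quisinostat and 25.9 and 26.1 with mivebresib. The romidepsin libraries overlapped the control, the quisinostat libraries lay below both of those groups, and the mivebresib libraries lay below all others. The group means were 93.4 ± 11.1, 85.1 ± 4.79, 56.3 ± 1.36 and 26.0 ± 0.113 CPM (SD, n = 2). The log2 FC was -1.87 with mivebresib (SE 0.11, adjusted p = 5.9e-06), a 3.65-fold fall, and -0.93 with quisinostat (SE 0.10, adjusted p = 0.000117). With romidepsin it was -0.21 (95% interval -0.44 to 0.02, adjusted p = 0.146), and -0.32 without the first control library (adjusted p = 0.0141). PMP22 with mivebresib and quisinostat passed the test under all 16 alternatives tried, at -1.98 to -1.72 and -1.08 to -0.73.

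MBP, a myelin protein that holds the cytoplasmic faces of the membrane together, lies on chromosome 18 (76978827 to 77133683, minus strand). It measured 88.4 and 87.4 CPM in the control, 94.6 and 94.8 with romidepsin, 86.6 and 89.8 with quisinostat and 109 and 112 with mivebresib. Both mivebresib libraries were above all others, and the quisinostat libraries straddled the control. Its log2 FC was 0.31 with mivebresib (SE 0.070, adjusted p = 0.00709), a rise of 1.24-fold, which was not called in a fit of only the control and mivebresib libraries (0.31, adjusted p = 0.064). With quisinostat it was -0.20 (adjusted p = 0.0448), although mean CPM was 88.2 ± 2.25 against 87.9 ± 0.688 (SD, n = 2), since the fit scales libraries by TMM factors, which were 1.09 for quisinostat and 0.940 to 0.962 for the control. On library size alone the value was 0.0054 (adjusted p = 0.957), and 13 of 16 alternatives did not call it. Leaving out any library other than the first control also ended the call, at -0.26 to -0.19. With romidepsin the log2 FC was 0.035 (95% interval -0.13 to 0.20, adjusted p = 0.729). MBP has a distant start that makes golli proteins and a nearer start that makes the classic myelin forms, and gene counts do not separate them.

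ERBB3 lies on chromosome 12 (56076799 to 56103505, plus strand). This neuregulin receptor has almost no kinase activity of its own and signals with ERBB2. It measured 3.51 and 4.46 CPM in the control, 5.47 and 4.91 with romidepsin, 9.47 and 10.6 with quisinostat and 0.835 and 0.878 with mivebresib. No 2 groups overlapped, with quisinostat highest and mivebresib lowest. The log2 FC was 1.13 with quisinostat (SE 0.16, adjusted p = 0.000452) and -2.23 with mivebresib (SE 0.21, adjusted p = 6.9e-05), a 2.19-fold rise and a 4.70-fold fall. With romidepsin it was 0.31 (95% interval -0.07 to 0.68, adjusted p = 0.187). Both calls held in all 16 alternatives, at 0.94 to 1.34 and -2.39 to -2.03. ERBB3 overlaps another annotated protein-coding gene, AC034102.2, on the same strand, and reads of the shared stretch cannot be assigned to one of them from the counts.

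CDH19 measured 4.70 and 8.13 CPM in the control, 4.51 and 3.88 with romidepsin, 3.42 and 4.69 with quisinostat and 1.11 and 0.948 with mivebresib. The control libraries were far apart from each other, the HDAC inhibitor libraries lay below the lower of them, some only slightly, and the mivebresib libraries were below all others. With mivebresib the log2 FC was -2.66 (SE 0.33, adjusted p = 0.000293), a 6.30-fold fall, and it stayed between -2.99 and -2.19 in all alternatives. With quisinostat it was -0.86 (SE 0.27, adjusted p = 0.0266). That call was lost without the second control library (-0.40, adjusted p = 0.164), without the first quisinostat library (-0.67, adjusted p = 0.144) and under 3 other alternatives. With romidepsin the value was -0.69 (95% interval -1.31 to -0.07, adjusted p = 0.0870), and -1.02 without the first control library (adjusted p = 0.00510).

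S100B (chromosome 21, 46598962 to 46605208, minus strand), a clinical marker of melanoma and of glia, was near the floor. It had 12 and 6 counts in the control, 7 and 7 with romidepsin, 12 and 14 with quisinostat and 7 and 8 with mivebresib. Its means were 0.307 ± 0.143, 0.240 ± 0.000481, 0.451 ± 0.0505 and 0.262 ± 0.0263 CPM (SD, n = 2). The quisinostat libraries were the highest, with the first control library just under them. It passed the filter on low counts only with the quisinostat libraries, and none of its comparisons passed the test. The 95% intervals of the log2 FC ran from -1.51 to 0.67 for romidepsin, -0.63 to 1.33 for quisinostat and -1.33 to 0.83 for mivebresib. Changes within these wide intervals were thus not excluded at this depth.

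ALDH1L1 (chromosome 3, 126103562 to 126197994, minus strand) had 20 and 15 counts in the control, 14 and 12 with romidepsin, 66 and 49 with quisinostat and 6 and 12 with mivebresib. The quisinostat libraries lay far above all others, and those of romidepsin and mivebresib lay below the control and overlapped each other. The mean rose from 0.598 ± 0.118 CPM in the control to 1.99 ± 0.410 with quisinostat (SD, n = 2), with a log2 FC of 1.53 (SE 0.33, adjusted p = 0.00436), a 2.89-fold rise. It was called in all 15 alternatives that tested it, at 1.29 to 1.73. With romidepsin the log2 FC was -0.49 (95% interval -1.40 to 0.42, adjusted p = 0.38) and with mivebresib -0.94 (95% interval -1.91 to 0.03, adjusted p = 0.104). Antisense RNAs are annotated opposite ALDH1L1, and also opposite PMP22, MBP and AQP4. Whether the counting used strand is not given in the sources used here. MBP also overlaps annotated genes on its own strand.

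AQP4 (chromosome 18, 26852038 to 26865818, minus strand) had 0 counts in all 8 libraries, which allows a level of up to 0.102 to 0.105 CPM per library. The astrocyte water channel was thus not detected under any treatment at this depth.

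**Figure D2:**
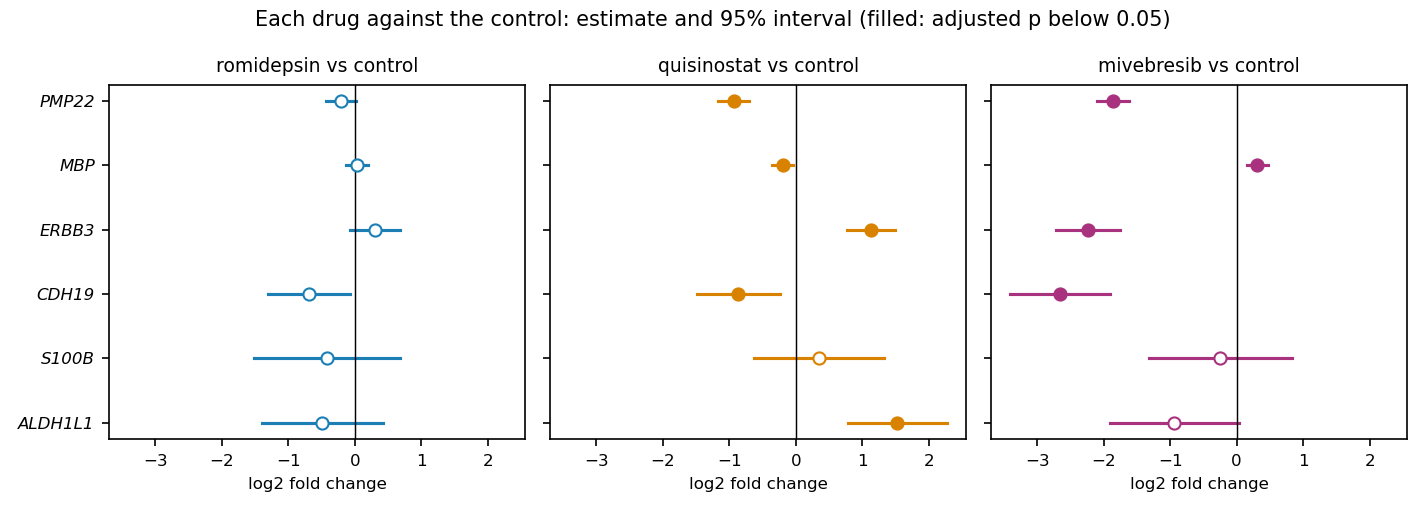
Log2 fold change of the 6 tested genes with each drug against the control (edgeR, 2 libraries per group), with 95% intervals as lines and filled circles where the adjusted p was below 0.05. No circle is filled for romidepsin, ERBB3 and ALDH1L1 lie to the right for quisinostat, and PMP22, ERBB3 and CDH19 lie beyond -1.5 for mivebresib.

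The HDAC inhibitors were compared with each other at the same molar dose and time. The paper reports that romidepsin reduced MP38 viability at lower concentrations than quisinostat, so the same molar dose need not be the same effective dose. Romidepsin left 2 members higher (PMP22 and MBP) and 2 lower (ERBB3 and ALDH1L1) than quisinostat did, against 14.6% and 21.0% of all genes. The log2 FC of romidepsin against quisinostat was 0.73 for PMP22 (SE 0.10, adjusted p = 0.00112) and -0.83 for ERBB3 (SE 0.15, adjusted p = 0.0042). It was -2.02 for ALDH1L1 (SE 0.34, adjusted p = 0.00276), the widest gap between the 2 HDAC inhibitors. For MBP it was 0.23 (SE 0.070, adjusted p = 0.0338), a call lost in 9 of 16 alternatives, among them the loss of any single romidepsin, quisinostat or mivebresib library (0.23 to 0.31). CDH19 gave 0.17 (95% interval -0.47 to 0.82, adjusted p = 0.67) and S100B -0.77 (95% interval -1.79 to 0.26, adjusted p = 0.221).

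Mivebresib was given at another dose than the HDAC inhibitors, so its direct comparisons concern these treatments and not potency. Against quisinostat, 1 member was higher (MBP) and 4 were lower, while 26.2% of all genes were higher and 31.5% lower. ERBB3 showed the widest difference, with a log2 FC of -3.37 (SE 0.20, adjusted p = 3.9e-06), a 10.3-fold gap. ALDH1L1 differed by -2.47 (adjusted p = 0.00053), CDH19 by -1.79 (adjusted p = 0.00209), PMP22 by -0.93 (adjusted p = 0.00011) and MBP by 0.50 (adjusted p = 0.000387). Against romidepsin, 1 member was higher (MBP) and 3 were lower, while 23.7% of all genes were higher and 25.2% lower. The log2 FC was -2.54 for ERBB3, -1.97 for CDH19 and -1.66 for PMP22 (adjusted p 2.9e-05, 0.00162 and 9.1e-06). MBP gave 0.27 (adjusted p = 0.0118), which was not called without any one romidepsin or mivebresib library (0.27 to 0.28), and ALDH1L1 gave -0.45 (95% interval -1.47 to 0.57, adjusted p = 0.438).

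**Figure D3:**
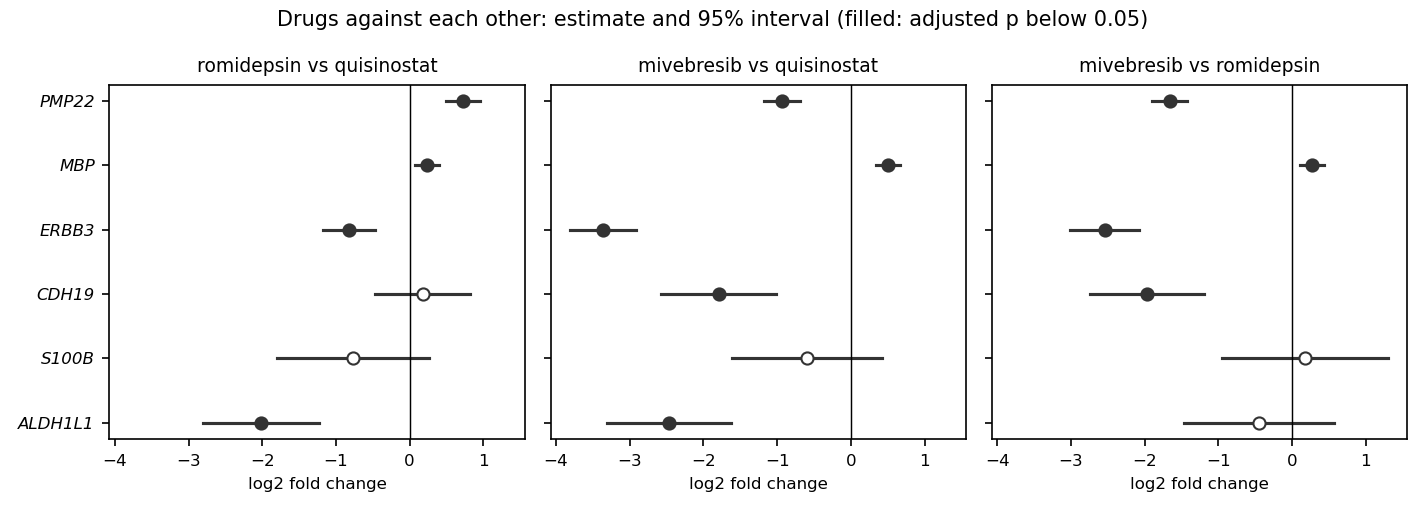
Log2 fold change of the 6 tested genes between drugs, the first named against the second, with 95% intervals as lines and filled circles where the adjusted p was below 0.05. ERBB3 differs in all 3 comparisons, by up to -3.37 for mivebresib against quisinostat, and S100B in none.

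Of the partners of ERBB3, the ligand NRG1 also fell with mivebresib, and the receptor ERBB2 passed the test with no drug. Wherever a count of listed genes is given as 0 here, neither DESeq2 nor limma-voom called one and at most 1 had an unadjusted p below 0.05, except that DESeq2 called 1 melanocyte marker, MITF, lower with romidepsin. ERBB2, its kinase partner, measured 37.6 and 52.1 CPM in the control and 38.2 to 56.4 CPM in the drug libraries, with log2 FCs of -0.17, 0.031 and -0.20 for romidepsin, quisinostat and mivebresib, none of which passed the test (adjusted p 0.438, 0.878 and 0.321). Without the first control library the romidepsin and mivebresib values (-0.37 and -0.41) passed, and without the second control library the quisinostat value did (0.31). Each also turned sign, to 0.11 and 0.076 without the second control library for romidepsin and mivebresib and to -0.22 without the first for quisinostat. NRG1, the ligand, was 19.5 ± 3.10 CPM in the control and 6.05 ± 0.730 CPM with mivebresib (SD, n = 2), a log2 FC of -1.71 (adjusted p = 3.7e-05), and passed with neither HDAC inhibitor (-0.18 and -0.094). NRG2, a related ligand, rose with romidepsin (1.26) and quisinostat (1.48), and EGFR, a sister receptor, rose with quisinostat (0.67) and mivebresib (1.51), the first of which was not called without the second quisinostat library (0.53, adjusted p = 0.0539). BACE1, the protease that releases neuregulin-1, rose with quisinostat (1.11). Of 15 genes of neuregulin and ERBB signalling other than ERBB3, 13 were tested. With romidepsin 1 was higher and 1 lower, with quisinostat 5 and 3, and with mivebresib 2 and 3. The shares of all tested genes were 15.2% and 15.8%, 28.0% and 25.1%, and 22.2% and 24.1%. ERBB4, with 0 and 0 counts in the control and 13 and 11 with quisinostat, passed the low-count filter only with the quisinostat libraries. It could therefore not be called lower there.

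Other genes of myelin moved in either direction. CNP, an enzyme of myelin-forming cells, was lower with all 3 drugs (-0.61, -0.996 and -0.45). NFASC, which anchors the node of Ranvier, rose with romidepsin (1.22) and quisinostat (2.39), and PRX, a scaffold of peripheral myelin, had 0.77 with quisinostat (adjusted p = 0.0238), not called without the second control or the first quisinostat library (0.66 and 0.52). Of 18 listed myelin proteins and lipid enzymes other than PMP22 and MBP, 10 were tested. With romidepsin 1 was higher and 1 lower, with quisinostat 3 and 2, and with mivebresib 0 and 3. Their medians were -0.023, 0.28 and -0.11. The shares of all tested genes were 15.2% and 15.8%, 28.0% and 25.1%, and 22.2% and 24.1%, so the quisinostat counts were near those of all genes.

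Among the regulators, SOX10 fell with every drug. It measured 208 and 190 CPM in the control and 54.4 and 51.5 CPM with mivebresib, with log2 FCs of -0.39, -0.92 and -1.93 for romidepsin, quisinostat and mivebresib (adjusted p 0.0141, 8.3e-05 and 3.8e-06), the first of which was not called without the first romidepsin library (-0.31, adjusted p = 0.129). PMP22 and CDH19 had the same order of values for these 3 drugs, although CDH19 did not differ between the HDAC inhibitors beyond its error. The other tested members did not have this order. ERBB3 had 0.31 (not called), 1.13 and -2.23, and MBP 0.035 (not called), -0.20 and 0.31. The melanocyte genes MITF, MLANA and MC1R also had the order of SOX10, with MLANA at -0.14 (not called), -1.05 and -1.33. Whether the fall of SOX10 is linked to that of PMP22 or CDH19 was not tested. EGR2, which switches on myelin genes in Schwann cells, went the other way with the HDAC inhibitors, from 0.735 ± 0.0763 CPM in the control to 4.45 ± 0.228 with romidepsin and 3.53 ± 0.185 with quisinostat (SD, n = 2; log2 FC 2.52 and 2.06, adjusted p 0.000123 and 6.9e-05). Its value with mivebresib was -0.82 (adjusted p = 0.0466), a call lost in most alternatives, including without any 1 library (-0.94 to -0.70). NGFR, the neurotrophin receptor of immature Schwann cells and of crest-like melanoma cells, rose with all 3 drugs, from 1.66 ± 0.129 CPM to 6.58 ± 0.108, 36.8 ± 2.86 and 15.9 ± 0.742 CPM (SD, n = 2; log2 FC 1.91, 4.27 and 3.24). NCAM1, an adhesion molecule of immature Schwann cells, rose with romidepsin (2.57) and quisinostat (5.24). ITGA4, an integrin of migrating crest cells, fell with mivebresib (-2.17, adjusted p = 0.000104). It had 0.54 with quisinostat (adjusted p = 0.0429), a call lost without any library other than the second control, the lowest value being 0.25 without the first control library. Of 18 listed regulators and markers of Schwann cells and crest glia, 15 were tested. With romidepsin 6 were higher and 2 lower, with quisinostat 9 and 3, and with mivebresib 5 and 7. The shares of all tested genes were 15.2% and 15.8%, 28.0% and 25.1%, and 22.2% and 24.1%. FABP7 had 6 and 4 counts in the control and 9 and 9 with mivebresib, against 18 and 20 with romidepsin and 94 and 80 with quisinostat. It passed the low-count filter only through the HDAC inhibitor libraries and could hardly be called lower there. MITF, the regulator of the melanocyte lineage, had log2 FCs of -0.22 (adjusted p = 0.0587), -1.40 and -1.47.

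Astrocyte genes rose more often than they fell with quisinostat, as ALDH1L1 did. Of 18 listed, 15 were tested. In edgeR 11 were higher and 0 lower with quisinostat, 6 and 1 with romidepsin and 7 and 3 with mivebresib. The medians were 0.90, 0.39 and 0.67. The shares of all tested genes were 28.0% and 25.1%, 15.2% and 15.8%, and 22.2% and 24.1%. KCNJ10 and SLC1A2 had 1 and 1 and 4 and 9 control counts, against 89 and 92 and 59 and 61 with quisinostat. They passed the low-count filter only through drug libraries and could hardly be called lower. GFAP, the defining filament of astrocytes, had 1 to 12 counts in a library and did not pass (0.28, 0.87 and 0.13, adjusted p 0.836, 0.396 and 0.922). SLC1A3, a glutamate transporter, rose with romidepsin (1.18) and quisinostat (1.95), and had -0.91 with mivebresib (adjusted p = 0.0358). Its romidepsin call was lost without the first romidepsin library (1.04, adjusted p = 0.058), and its mivebresib call without the second control library or either mivebresib library (-1.06 to -0.77). CLU, a secreted chaperone, rose with all 3 drugs (0.70, 1.78 and 2.40), ATP1B2 with quisinostat (2.84) and mivebresib (1.66), and SLC4A4, a bicarbonate transporter, with quisinostat (2.30). SOX9, a factor of glial specification, was higher with all 3 (0.77, 1.28 and 0.81), the first not called without either romidepsin library (0.75 and 0.78).

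Among oligodendrocyte lineage genes, calls with quisinostat were all higher and those with mivebresib all lower. Of 12 listed, 10 were tested. In edgeR 6 were higher and 0 lower with quisinostat, 0 and 4 with mivebresib, and 1 and 1 with romidepsin. The shares of all tested genes were 28.0% and 25.1%, 22.2% and 24.1%, and 15.2% and 15.8%. All 10 were lower with mivebresib than with quisinostat, against 31.5% of all genes. ZNF488 (2 and 4 control counts, 25 and 21 with quisinostat) passed the low-count filter only with the quisinostat libraries. OLIG2 passed it only through the HDAC inhibitor libraries. Their higher levels with quisinostat are thus tied to that filter. OLIG2, the defining factor of the lineage, had 19 and 6 counts in the control, 73 and 92 with romidepsin, 148 and 160 with quisinostat and 9 and 5 with mivebresib. Its log2 FC was 2.65 with romidepsin and 3.43 with quisinostat (adjusted p 0.00156 and 0.000103), and -0.81 with mivebresib (adjusted p = 0.283), a value that rested on the control libraries, being -1.39 without the second (adjusted p = 0.0358) and 0.23 without the first (adjusted p = 0.808). NKX2-2, CSPG4 and LINGO1 fell with mivebresib (-2.21, -1.31 and -1.28), and LINGO1 rose with quisinostat (0.89). CSPG4 had 0.40 with romidepsin and 0.020 with quisinostat (adjusted p 0.116 and 0.932), and without the second control library these were called at 0.73 and 0.35. The quisinostat value was -0.26 without the first control library and -0.14 without the second quisinostat library, so it had no settled direction.

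**Figure D4:**
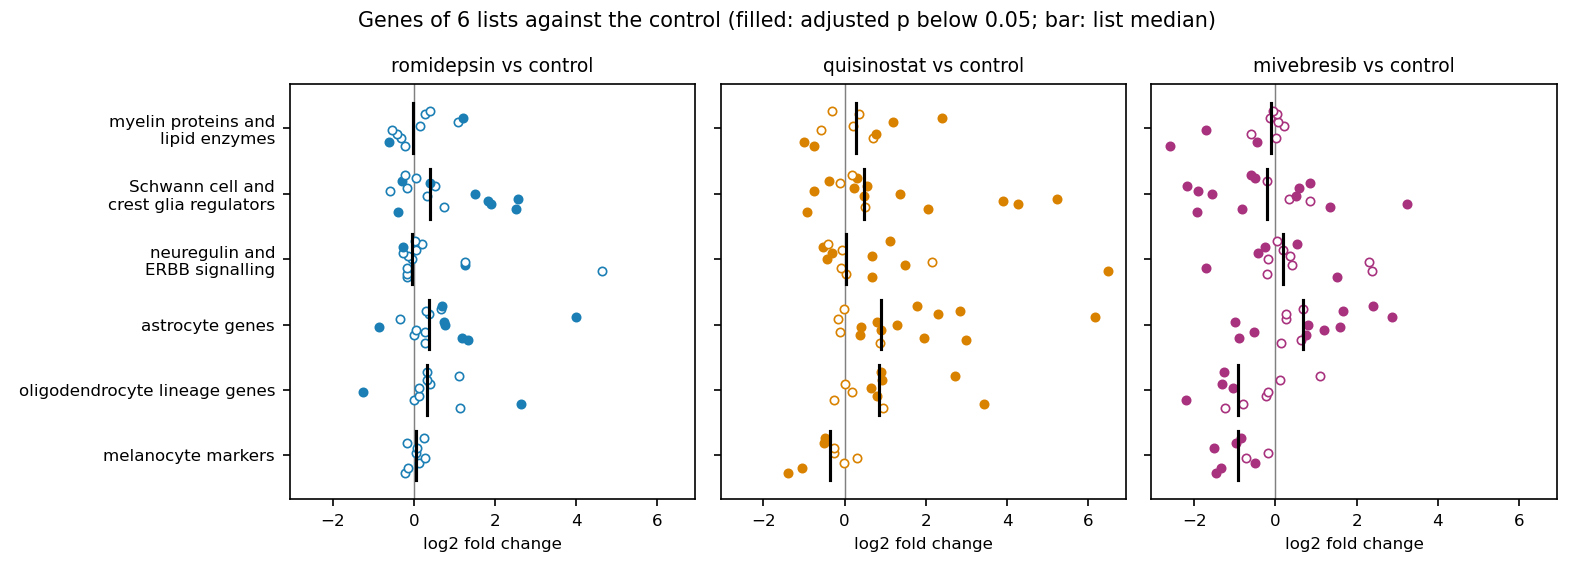
Log2 fold change against the control for the tested genes of 6 lists, with a panel for each drug (edgeR, 2 libraries per group). Filled circles have an adjusted p below 0.05 and black bars are list medians. The oligodendrocyte and melanocyte lists lie mostly left of 0 with mivebresib (medians -0.92 and -0.92), and the astrocyte list mostly right of 0 with quisinostat (median 0.90).

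The relatives of the members did not all move with them. In the family of PMP22, EMP2 and EMP3 fell with mivebresib (-1.30 and -1.21), as did EMP1 (-0.79), while TMEM47 rose (1.73). With quisinostat EMP3 fell (-1.33), TMEM47 rose (1.07), EMP2 had -0.33 (adjusted p = 0.0244), not called without the second control library or either quisinostat library (-0.39 to -0.17), and EMP1 had -0.06 (adjusted p = 0.78). That EMP1 value was -0.31 without the first control library (adjusted p = 0.0288), 0.22 without the second (adjusted p = 0.0902), and 0.15 and 0.074 on library size alone and under upper-quartile factors. EMP1 had 0.59 with romidepsin (adjusted p = 0.0244), not called without either romidepsin library (0.52 and 0.65), and EMP2 and EMP3 had -0.20 and -0.28, called without the first control library only (-0.32 each). Of 5 relatives 4 were tested; 1 was higher and 0 lower in edgeR with romidepsin, 1 and 2 with quisinostat, and 1 and 3 with mivebresib. Among 12 type II cadherins other than CDH19, 6 were tested. With quisinostat 5 were higher and 0 lower, with mivebresib 1 and 2, and with romidepsin 1 and 0. The shares of all tested genes were 28.0% and 25.1%, 22.2% and 24.1%, and 15.2% and 15.8%. CDH20 and CDH22 had 2 and 1 and 0 and 0 control counts, against 13 and 19 and 25 and 23 with quisinostat. They passed the low-count filter only with quisinostat, so they could not be called lower there. The romidepsin call was CDH6 (1.11, adjusted p = 0.0384), lost under limma-voom (1.09) and with a replicate block (1.11). It was 0.75 without the first romidepsin library. CDH6, also a cadherin of crest and glial cells, rose from 0.445 ± 0.147 CPM in the control to 10.9 ± 0.820 with quisinostat (SD, n = 2; log2 FC 4.41, adjusted p = 5.4e-06), the opposite direction to CDH19.

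The genes most like each member across the 8 libraries were found by Pearson's r of log2 CPM among 11797 or 11798 genes whose average log2 CPM was 1 or more, as a description of libraries that share the same groups. They were MED24, EPB41L2 and TNS2 for PMP22 (r 0.998 to 0.995), MAST2, TBC1D24 and SH3BP4 for MBP (0.999 to 0.996), and IKZF2, PCDHB7 and SLITRK6 for ERBB3 (each 0.996). For CDH19 they were DRAM1, QSER1 and MAGED1 (0.993 to 0.991), for ALDH1L1 CECR7, ERCC6 and SAMD11 (0.987 to 0.976), and for S100B they included EFCAB11 and ANKRD20A3 (0.942 and 0.925). SLITRK6, a neuronal adhesion protein, resembled ERBB3 closely in direction, with a log2 FC of 1.64 for quisinostat and -3.94 for mivebresib (adjusted p 6.2e-05 and 1.4e-05), and 0.046 for romidepsin (adjusted p = 0.858).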

How the data were processed

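Bulk RNA of MP38 cells was sequenced by the study as strand-specific paired-end mRNA libraries, and the authors made the tables with BioJupies. The deposited table holds raw counts per gene symbol, without normalization, on build hg38 per the submitters' processing notes; the aligner, annotation and use of strand are not given in the sources used here. A second deposited table holds log10 values, which the authors computed as log10(CPM + 1) of those counts and which served as a check only. A quantile-normalized table was not used, since its scale is not named. Each comparison used edgeR 4.0.16 (R 4.3.3) on these counts (quasi-likelihood test, TMM scaling, filterByExpr with a minimum count of 10, 1 model of all 8 libraries, Benjamini-Hochberg adjustment over 15085 genes), with a common biological coefficient of variation of 0.0938. CPM in the text is not TMM-scaled, and log2 CPM used a prior count of 2. The scripts were tested on simulated data. Members and lists were chosen with earlier results of these data known. Genes of each list were named by a rule: up to 4 called genes with the largest change and an average log2 CPM of at least 0, the 3 most alike genes per member, and 11 known regulators and markers. Some genes that the rule names, and the summed levels of marker lists that hold them, are not reported here. Lists covered myelin, Schwann cell regulators, neuregulin signalling, astrocytes, oligodendrocytes, relatives of each member, folate enzymes and markers of melanocytes, leukocytes, fibroblasts and endothelium. Positions and exon lengths came from GENCODE 29 on GRCh38, and upstream sequence from RefSeq (GRCh38.p14). Alternatives were DESeq2 1.42.0, limma-voom (limma 3.58.1), other scalings, filters, thresholds and samples, a replicate block and each library left out; a library left alone in its group is then assumed to vary like the others. Figures were drawn with matplotlib 3.10.9 in Python 3.11.15.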

Additional observations from a re-analysis of the deposited data

How the results depend on the processing

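Of 564 values of the members under 16 alternatives, 526 kept their direction and side of the threshold, 31 lost and 2 gained a call, and 5 changed sign. MBP with quisinostat turned to 0.0054 on library size alone. The other sign changes came from leaving out 1 library: S100B ran from -0.81 to 0.16 with romidepsin, -0.042 to 0.88 with quisinostat and -0.64 to 0.33 with mivebresib, and CDH19 with romidepsin against quisinostat from -0.0045 to 0.47. Members called lower with quisinostat numbered 1 under upper-quartile factors, library size alone, only the 4 libraries of the comparison or an adjusted p below 0.01, and 1 to 3 with a library left out; with romidepsin this range was 0 to 2. Members higher with mivebresib numbered 0 with only its 4 libraries. With quisinostat 1 was higher at a mean CPM of at least 1, a filter that removes ALDH1L1, and likewise 1 was lower with romidepsin than with quisinostat. Members higher with romidepsin than with quisinostat numbered 1 under either other scaling, without a filter, or at an adjusted p below 0.01, and 1 to 2 with a library left out. Those higher with mivebresib than with romidepsin numbered 0 at that p and 0 to 1 with a library left out. Requiring a log2 FC beyond 1.5 left 1 member higher and 0 lower with quisinostat and 0 higher with mivebresib; it left 0 higher and 1 lower with romidepsin against quisinostat, and 0 higher with mivebresib against either HDAC inhibitor. Of all tested genes, 15.2% were higher and 15.8% lower with romidepsin, 28.0% and 25.1% with quisinostat, and 22.2% and 24.1% with mivebresib. Of 110 tested genes of the lists, 19 were higher and 14 lower with romidepsin, 45 and 25 with quisinostat and 19 and 46 with mivebresib. Requiring a log2 FC beyond 1.5 left 9 and 0, 21 and 1, and 7 and 12 of these list genes. Of all tested genes, 3.77% and 0.312%, 11.2% and 1.03%, and 3.96% and 4.36% passed that limit. List genes such as KCNJ10, SLC1A2, OLIG2, FABP7, ZNF488, ERBB4, FTCD, CDH20, CDH22 and PECAM1 passed the low-count filter only through drug libraries. They could hardly be called lower with those drugs. The romidepsin count of lower genes was 9 under either other scaling, 6 with only its 4 libraries, 6 at an adjusted p below 0.01 and 6 to 21 with a library left out; its count of higher genes was 13 to 31, and 31 without the second control library. Library size alone left 16 lower with quisinostat; it shifts the median of all genes there by 0.20 and upper-quartile factors by 0.13. Which property of these settings moved a value was not tested.

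The replicate numbers did not pair the libraries (correlations of deviations -0.162 to 0.158 between groups), and a replicate block moved the count of genes called with quisinostat from 8024 to 7954; it ended the MBP call there (-0.20, adjusted p = 0.0611) and no other call of a member. The control pair, which differed most, limits the comparisons with the control, and counts under 15 limit S100B.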

Other observations

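Enzymes of folate metabolism, the pathway of ALDH1L1, did not follow it. Of 12 listed, all were tested. In edgeR 0 were higher and 6 lower with romidepsin, 1 and 7 with quisinostat, and 2 and 7 with mivebresib. The medians were -0.27, -0.39 and -0.44. The shares of all tested genes were 15.2% and 15.8%, 28.0% and 25.1%, and 22.2% and 24.1%. FTCD, with 1 and 2 control counts and 12 and 11 with quisinostat, passed the low-count filter only with the quisinostat libraries. TYMS, which makes thymidylate for DNA synthesis, was 142 ± 31.1 CPM in untreated cells and fell to 67.4 ± 4.84, 35.5 ± 1.31 and 76.2 ± 0.919 CPM under romidepsin, quisinostat and mivebresib (SD, n = 2; log2 FC -1.14, -2.20 and -0.92). The mitochondrial MTHFD1L fell by 0.49, 0.65 and 0.84 on the log2 scale. MTFMT rose with mivebresib (0.91).

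Among relatives of S100B, most calls were falls. Of 11 listed, 9 were tested. In edgeR 0 were higher and 2 lower with romidepsin, 0 and 4 with quisinostat, and 1 and 6 with mivebresib. The shares of all tested genes were 15.2% and 15.8%, 28.0% and 25.1%, and 22.2% and 24.1%. S100A11 fell with quisinostat (-1.01, adjusted p = 0.00175). S100A4 had -1.43 with quisinostat (adjusted p = 0.0065) and was not called without the second quisinostat library (-1.17, adjusted p = 0.0558). Of 11 aquaporins other than AQP4, 3 were tested, none of which passed in edgeR with romidepsin, and AQP1 had 0.89 with quisinostat and -1.24 with mivebresib (adjusted p 0.0463 and 0.034), calls that were lost when several single libraries were left out (0.78 to 0.94 and -1.24 to -0.67 over those fits).

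Melanocyte markers fell with quisinostat (4 of 8 tested) and mivebresib (6 of 8), 0 rose with either drug and none passed in edgeR with romidepsin. Of all tested genes 25.1% were lower with quisinostat and 24.1% with mivebresib. MLANA had log2 FCs of -1.05 and -1.33 with quisinostat and mivebresib, MC1R -0.52 and -0.98, and SLC45A2 -1.52 with mivebresib. The MC1R call with quisinostat was lost without the second quisinostat library (-0.50, adjusted p = 0.0626) and on library size alone (-0.32, adjusted p = 0.0792). Of markers of other cell types, KDR rose from 0.496 ± 0.123 CPM in the control to 5.22 ± 0.434 with quisinostat, and COL1A1 from 1.45 ± 0.128 to 10.01 ± 1.83 (SD, n = 2). Of 6 endothelial markers 2 were tested, with 1 higher with romidepsin, 2 with quisinostat and 0 in edgeR with mivebresib. PECAM1 (2 and 5 control counts, 11 and 17 with quisinostat) passed the low-count filter only with the quisinostat libraries. Its higher level there is thus tied to that filter. Of 7 fibroblast markers 2 were tested, with 1 higher with each HDAC inhibitor and 1 lower with mivebresib. Among all tested genes, 15.2% were higher under romidepsin, 28.0% under quisinostat and 22.2% under mivebresib. Lists of 2 tested genes are too short to be set against these shares. The leukocyte list had 1 gene tested of 8, CSF1R, which did not pass with any drug (adjusted p 0.117, 0.165 and 0.664).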
